A study of Homo sapiens with 36 samples.

Results

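The 34 genes described here are targets of the hypoxia-inducible factors (HIFs) that lie outside glycolysis and collagen hydroxylation. They were chosen by symbol from general knowledge of the pathway, with earlier results of these data already known. The shares of members given below therefore describe the list and are not independent support. The symbols were matched through GENCODE v44 to gene identifiers in a table of normalised counts, and all 34 were found among its 29872 genes. The cells were LNCaP, an androgen-sensitive line established from a lymph node metastasis of human prostate cancer, and no group carried a further genetic change. The study asked what inhibition of cyclin-dependent kinase 4 (CDK4) does to transcription in these cells. It set AU2-94 and atirmociclib, described as CDK4-selective, beside ribociclib, which inhibits CDK4 and CDK6. The paper's kinase assays found that atirmociclib also inhibited CDK1, CDK2, CDK6, CDK7 and CDK9, each more potently than AU2-94 did. The part of these other kinases in the results was not tested. The 36 libraries fall into 12 groups of 3 biological replicates. At each of 24 h and 72 h of exposure there were vehicle, AU2-94 at 1 µM, AU2-94 at 2 µM, atirmociclib at 1 µM, atirmociclib at 2 µM and ribociclib at 2 µM. Fewer cells were seeded per well for 72 h than for 24 h, so time and density varied together and their effects cannot be told apart. All groups came from 1 cell line, and the labels name no low-oxygen treatment.

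HIFs are made of an oxygen-labile alpha subunit and a constant beta subunit. When oxygen is plentiful, prolyl hydroxylases of the EGLN family mark the alpha subunit for destruction by the VHL ubiquitin ligase. When it is not, the pair binds short DNA elements built on ACGTG or GCGTG and raises genes that bring in blood vessels, remove mitochondria, buffer pH, store glycogen and lipid, and reset chromatin. Several of these genes also answer to other signals, so their names mark a pathway in which they are known and not the signal that moved them.

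The printed values are normalised counts deposited by the authors, with no length correction, so levels are compared between libraries and never between genes. A fold change is a difference on the log2(value + 1) scale. Each adjusted p comes from limma with Benjamini-Hochberg adjustment over all genes tested in that comparison. A gene is called when its adjusted p is at most 0.05 and its log2 fold change at least 1 in size. Where a count at an unadjusted p under 0.05 stands without the number over all genes, it is not a result about the members. The totals ran from 20675156 to 22692555 per library, between 19708 and 21405 genes were above 0, and mitochondrial genes held 6.34% to 8.66%. All 10 LNCaP and luminal prostate markers were tested, and their summed level was 118111 to 123666 in vehicle and 156786 to 172587 in treated libraries at 24 h. Of 6 basal or mesenchymal markers only KRT14 and VIM were tested. Both were called higher at 24 h (1.67 and 1.07 log2 units for the mean of the treatments), against 1.62% of all genes. The summed level of the 6 was 59.6 to 78.0 in vehicle and 88.6 to 219 in treated libraries at 24 h, and 97.5 to 137 and 128 to 236 at 72 h. Fibroblast, endothelial and leukocyte markers summed to at most 658, 713 and 144 in any library. No marker was at 0 in every library. The part of any of these markers in the results was not tested, and in bulk RNA fewer cells of a type and less RNA per cell cannot be told apart.

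The sequence in front of these genes was read for the core of the HIF element. RefSeq windows of the 250 bases upstream of the annotated start (GRCh38.p14) were listed for 26 of the 34 genes, and none was listed for BNIP3L, HILPDA, JMJD6, NDRG1, NDUFA4L2, RAB20, STC1 or VEGFA. The letters ACGTG and GCGTG were searched on both strands, and CACGTG, which holds ACGTG on both, was counted once. A gene with more than 1 annotated start had more than 1 window, and its window with the most matches was counted. Such genes, among them AK4, INSIG2 and KDM3A, had more chances to match, and the part of this was not tested. At least 1 match was present in 22 of the 26 genes (84.6%) and at least 2 in 17 (65.4%). Of all 27305 genes with a window, 47.4% had at least 1 and 19.1% at least 2. The GC content differed too, with a median of 68.8% in the members' windows and 58.0% in all, and its part in the difference was not tested. The windows of 4 genes are shown. MIR210HG, PPFIA4 and BHLHE40 were called higher in the mean of the treatments at 24 h, and BHLHE41 was the 1 called lower in it. RORA, called lower in 1 single treatment at 72 h, had a listed window with 0 matches, which is not shown. Capitals mark the matched letters, and each window is written 5′ to 3′ on the gene's own strand. They lie at chr11:568458-568707 (minus) for MIR210HG, chr1:203026241-203026490 (plus) for PPFIA4, chr3:4979187-4979436 (plus) for BHLHE40 and chr12:26125038-26125287 (minus) for BHLHE41.
MIR210HG: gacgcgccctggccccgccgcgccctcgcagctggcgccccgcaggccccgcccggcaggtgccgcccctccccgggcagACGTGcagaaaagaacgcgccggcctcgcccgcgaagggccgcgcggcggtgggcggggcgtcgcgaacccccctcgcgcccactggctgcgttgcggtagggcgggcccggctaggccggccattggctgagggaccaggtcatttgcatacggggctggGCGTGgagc
PPFIA4: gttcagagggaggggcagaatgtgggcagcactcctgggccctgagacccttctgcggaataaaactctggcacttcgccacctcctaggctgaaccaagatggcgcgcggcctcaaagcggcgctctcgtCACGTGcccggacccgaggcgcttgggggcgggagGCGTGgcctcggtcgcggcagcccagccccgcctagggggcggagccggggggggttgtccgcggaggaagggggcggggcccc
BHLHE40: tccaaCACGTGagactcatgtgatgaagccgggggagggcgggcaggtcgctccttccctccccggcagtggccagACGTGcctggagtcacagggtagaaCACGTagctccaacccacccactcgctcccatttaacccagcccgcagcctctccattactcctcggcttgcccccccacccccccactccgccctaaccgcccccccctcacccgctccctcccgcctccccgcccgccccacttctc
BHLHE41: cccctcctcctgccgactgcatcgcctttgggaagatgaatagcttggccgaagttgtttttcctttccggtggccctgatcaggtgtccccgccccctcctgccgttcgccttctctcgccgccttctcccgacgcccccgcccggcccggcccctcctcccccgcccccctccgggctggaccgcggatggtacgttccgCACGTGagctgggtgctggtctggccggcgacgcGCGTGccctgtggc
The windows of MIR210HG, PPFIA4 and BHLHE41 hold 2 matches each and that of BHLHE40 holds 3. A match describes the letters and is not evidence of binding.

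Most of the hypoxia targets rose under the CDK4 inhibitors at both times. At 24 h, 22 of the 32 members tested were past the adjusted p and higher in the mean of the 5 treatments, where 20.7% of all 16137 genes were. NDUFA4L2, STC1, NDRG1, PPFIA4, BNIP3, MIR210HG, BHLHE40 and ANKRD37 were called higher, which makes 8 of 32 against 1.62% of all genes. Only 2 members, STC2 and BHLHE41, were past the adjusted p and lower, against 19.2% of all genes, and BHLHE41 was the 1 called lower, against 3.67%. At 72 h, 21 of 32 were higher past the adjusted p against 21.7% of 16341 genes, and 7 were called higher against 3.65%. The 7 were NDUFA4L2, PPFIA4, NDRG1, STC1, MIR210HG, BNIP3 and KDM3A. STC2 was the 1 member lower past the adjusted p at 72 h, against 21.7% of all genes, and limma called 0 lower, against 1.7%, with 1 lower at an unadjusted p under 0.05. The median log2 fold change over the members was 0.43 at 24 h and 0.38 at 72 h, beside 0.0011 and -0.0028 over all genes. CA9 and ANGPTL4 were too low to be tested. The plot of fold changes by treatment shows that the called members recur from column to column, and all treatments of a time share the same 3 vehicle libraries, so their counts are not independent.

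**Figure D1:**
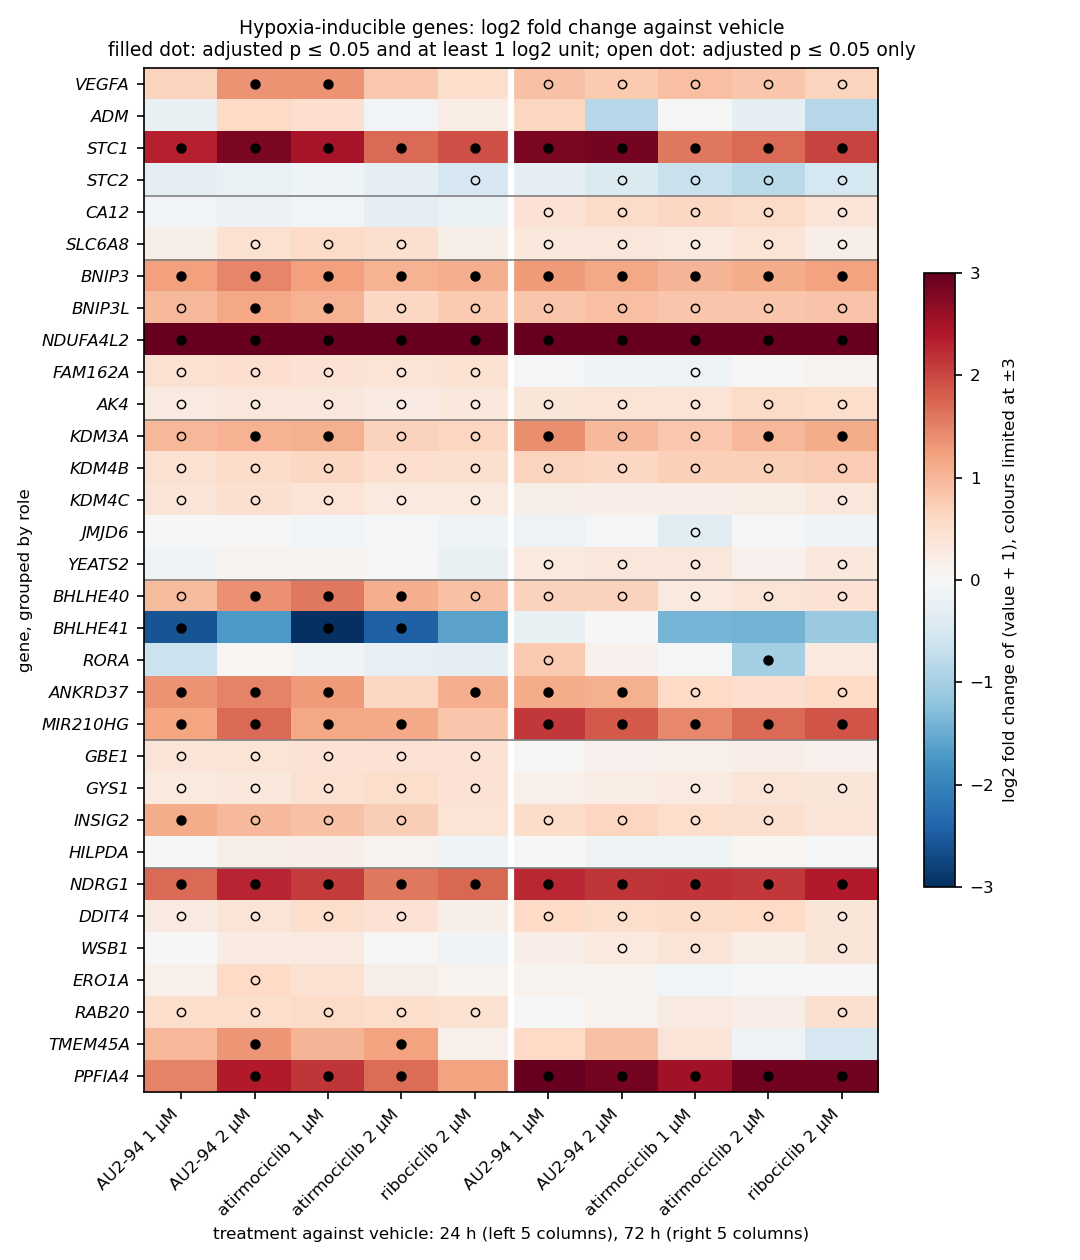
The colours give the log2 fold change against vehicle of the 32 tested members (vertical axis) in the 10 treatment groups (horizontal axis), limited to 3 in size. Filled dots mark members called, with an adjusted p of at most 0.05 and a change of at least 1 log2 unit, and open dots mark members past the adjusted p alone. NDUFA4L2, STC1, NDRG1 and BNIP3 are called in all 10 columns.

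Treatment by treatment at 24 h, AU2-94 at 1 µM had 7 of 32 members called higher against 1.61% of all genes and 1 called lower against 2.4%. AU2-94 at 2 µM had 12 called higher against 2.08%. Limma called 0 lower there, against 2.94%, with 1 at an unadjusted p under 0.05 beside 3167 of all 16137 genes. Atirmociclib at 1 µM had 11 called higher against 1.5% and 1 lower against 4.22%. For atirmociclib at 2 µM the numbers were 8 against 1.26% and 1 against 4.82%. Ribociclib had the fewest, 5 called higher against 1.39%. Limma called 0 lower with it against 3.66%, with 1 at an unadjusted p under 0.05 beside 3208 of all 16137 genes. The 5 genes of the ribociclib group were STC1, BNIP3, NDUFA4L2, ANKRD37 and NDRG1. Those called with AU2-94 at 2 µM also included VEGFA, BNIP3L, KDM3A, BHLHE40, MIR210HG, TMEM45A and PPFIA4.

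The counts at 72 h lay closer to each other. They were 8 called higher for AU2-94 at 1 µM against 3.51% of all genes, 7 for AU2-94 at 2 µM against 3.02%, 6 for atirmociclib at 1 µM against 4.06%, 7 for atirmociclib at 2 µM against 3.87% and 7 for ribociclib against 2.95%. STC1, BNIP3, NDUFA4L2, MIR210HG, NDRG1 and PPFIA4 were called in each of the 5. Atirmociclib at 2 µM had 1 member called lower, RORA, against 3.67%. Limma called 0 lower for AU2-94 at 1 µM (against 0.869%), AU2-94 at 2 µM (0.838%), atirmociclib at 1 µM (2.67%) and ribociclib (1.54%). At an unadjusted p under 0.05 these had 1, 1, 3 and 1 lower.

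Genes acting at the mitochondrion came first in size, through NDUFA4L2, the member with the largest mean change at both times. All 5 members of this role were past the adjusted p and higher at 24 h and 4 at 72 h in the mean of the treatments, against 20.7% and 21.7% of all genes. NDUFA4L2 and BNIP3 were called at both times. NDUFA4L2 (ENSG00000185633, chr12:57234903-57240715, minus strand, GRCh38) encodes a relative of a respiratory-chain subunit that HIF-1 induces and that lowers oxygen use. In vehicle at 24 h its 3 libraries stood at 41.1, 113 and 70.3 normalised counts. They stood at 556, 2538 and 1549 with AU2-94 at 1 µM and at 3059, 2968 and 1779 with AU2-94 at 2 µM. With atirmociclib they were 2377, 1928 and 2092 at 1 µM and 2497, 1869 and 201 at 2 µM, and with ribociclib 1243, 637 and 1298. Every one of the 15 treated libraries lay above every vehicle library, replicate 3 of atirmociclib at 2 µM by far the least. The log2 fold change of the mean of the treatments was 4.40 (SE 0.53, adjusted p = 2.56e-06), and single treatments ran from 3.81 to 5.18. At 72 h the vehicle libraries held 34.9, 26.98 and 25.9. The AU2-94 libraries held 1049, 1106 and 986 at 1 µM and 611, 732 and 1061 at 2 µM. The atirmociclib libraries held 379, 449 and 896 at 1 µM and 273, 443 and 422 at 2 µM, and the ribociclib libraries 356, 168 and 632. The groups again did not overlap with vehicle, and the mean change was 4.22 (SE 0.28, adjusted p = 7.36e-10). Its last 33 bases overlap SHMT2 on the other strand, a gene with mean changes of -0.01 and -0.33.

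BNIP3 (ENSG00000176171, chr10:131967684-131981967, minus strand) and BNIP3L are receptors on the outer mitochondrial membrane that mark mitochondria for autophagy. BNIP3 held 2495, 3007 and 2676 in vehicle at 24 h. The AU2-94 libraries held 5357, 6942 and 7113 at 1 µM and 8033, 7604 and 6841 at 2 µM. The atirmociclib libraries held 6212, 6389 and 6396 at 1 µM and 7897, 6379 and 3527 at 2 µM, and the ribociclib libraries 5575, 5502 and 6180. All treated libraries were above vehicle and most lay near each other, apart from the third atirmociclib 2 µM library. The mean change was 1.21 (SE 0.15, adjusted p = 2.32e-06). At 72 h vehicle held 2571, 2611 and 2751, and the 15 treated libraries 4719 to 6894, giving 1.16 (SE 0.07, adjusted p = 4.13e-10). BNIP3 has a processed copy, BNIP3P1, so how reads were shared between them is uncertain. BNIP3L rose by 0.91 (SE 0.14) at 24 h and 0.85 (SE 0.07) at 72 h, and was called with AU2-94 at 2 µM and atirmociclib at 1 µM at 24 h only. AK4, a mitochondrial adenylate kinase, rose by 0.30 and 0.46, with near-identical pseudogene copies that make its reads uncertain. FAM162A, a mitochondrial protein that promotes cell death under hypoxia, rose by 0.45 at 24 h and stood at -0.04 at 72 h (adjusted p = 0.503). FAM162A overlaps WDR5B over 489 bases, and WDR5B had mean changes of 0.39 and 0.18.

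**Figure D2:**
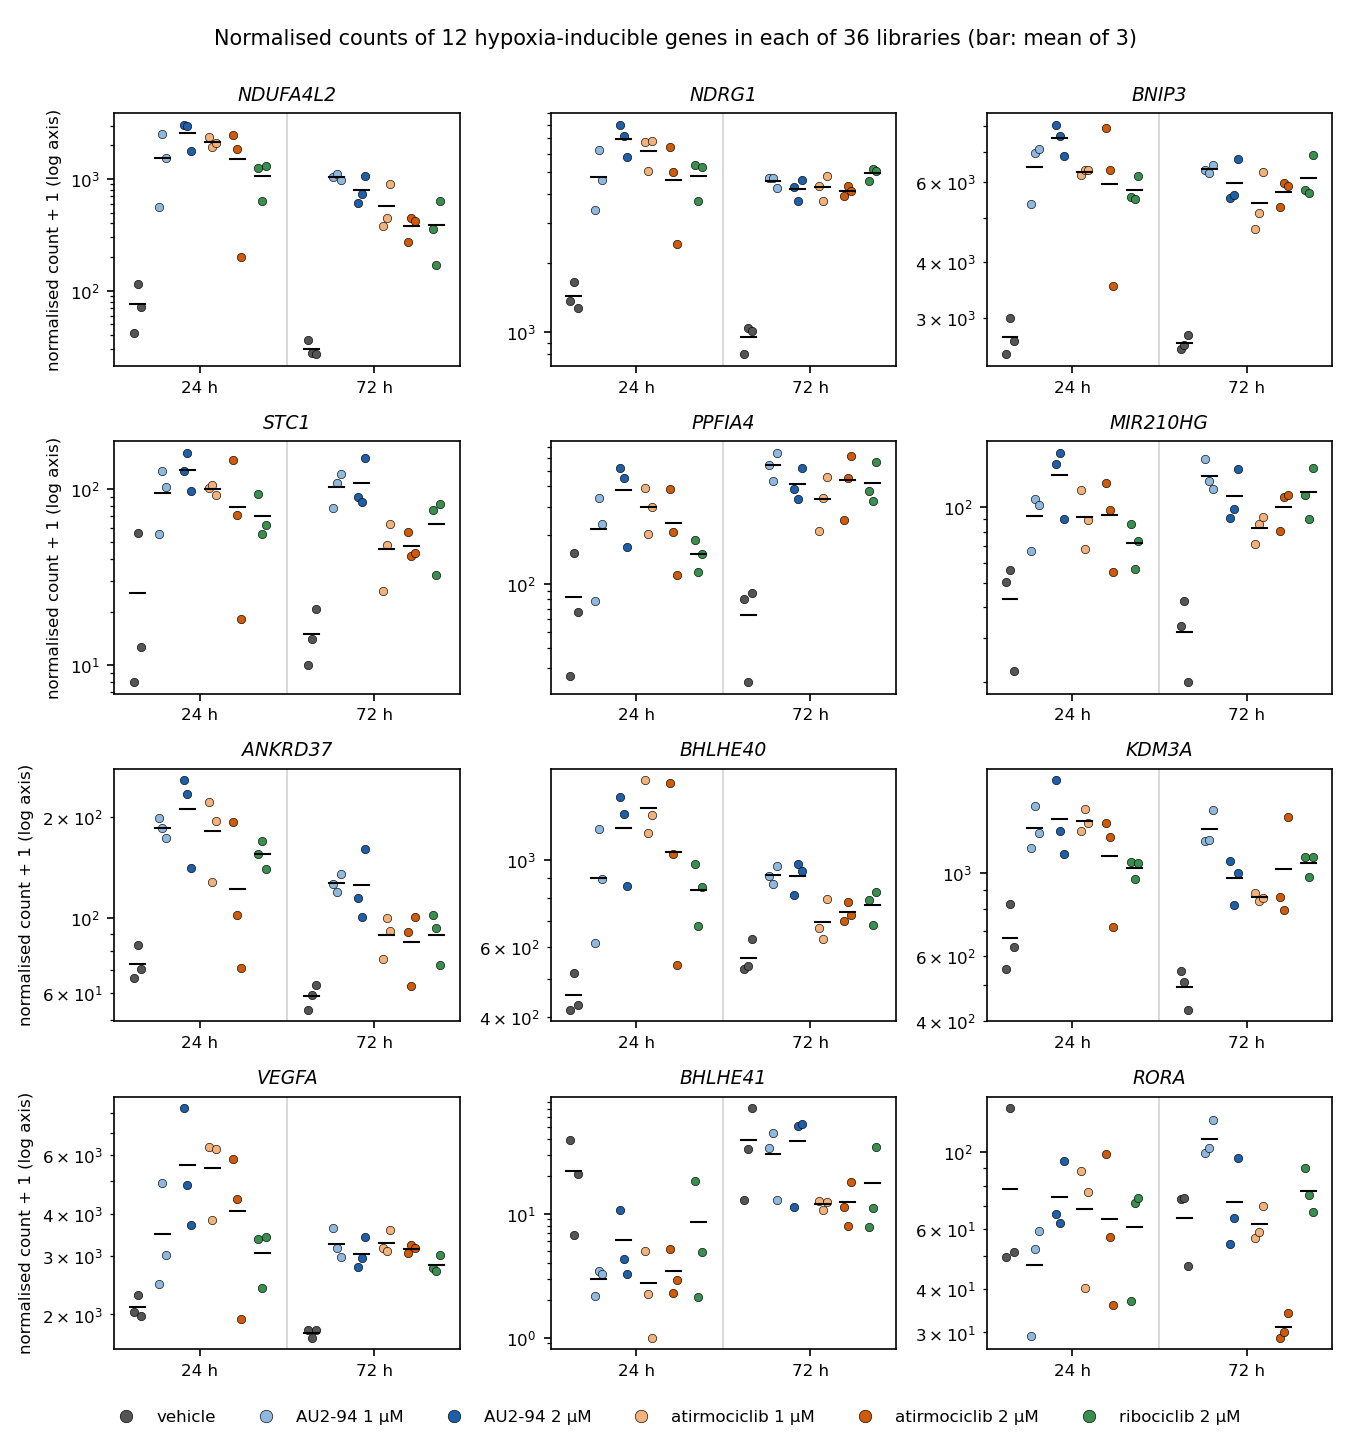
Each panel gives 1 gene, with normalised count + 1 on a log axis against the 12 groups, 1 point per library (36 in all) and a bar at the mean of 3. NDUFA4L2, NDRG1 and BNIP3 show treated libraries above all vehicle libraries at both times, and the third atirmociclib 2 µM library at 24 h falls below its replicates in most panels.

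Of 4 secreted and angiogenic factors tested, 2 rose and 1 fell past the adjusted p at each time, and STC1 was called at both. Of all genes 20.7% rose and 19.2% fell past it at 24 h, and 21.7% each way at 72 h. The 1 of 4 that fell is near those shares. STC1 (ENSG00000159167) encodes stanniocalcin-1, a secreted glycoprotein hormone. Its libraries held 6.94, 54.9 and 11.6 in vehicle at 24 h, a spread that the second replicate sets. They held 54.4, 125 and 102 with AU2-94 at 1 µM and 125, 160 and 96.5 at 2 µM. With atirmociclib they held 99.7, 104 and 90.6 at 1 µM and 145, 70.2 and 17.3 at 2 µM, and with ribociclib 92.4, 54.0 and 61.2. Of the 15 treated libraries 12 lay above every vehicle library. The mean change was 2.25 (SE 0.49, adjusted p = 0.00123). It passed with any library left out, but without vehicle replicate 1 STC1 did not pass with AU2-94 at 1 µM (1.75), atirmociclib at 2 µM (1.11) or ribociclib (1.36). At 72 h the vehicle libraries held 9.004, 13.1 and 19.8 and the treated ones 25.2 to 149, all of them higher, with a mean change of 2.20 (SE 0.29, adjusted p = 6.17e-06).

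VEGFA, the main growth factor for blood vessels, held 2035, 2287 and 1974 in vehicle at 24 h. The 15 treated libraries ran from 1944 to 8285 with a median of 3841, and 14 lay above every vehicle library. The exception, at 1944, was replicate 3 of atirmociclib at 2 µM. VEGFA rose by 0.94 (SE 0.27, adjusted p = 0.00846) at 24 h, just under the size needed for a call, and was called in 2 single treatments. At 72 h its 15 treated libraries, at 2697 to 3633, all exceeded vehicle (1703 to 1792), and the rise was 0.81 (SE 0.06, adjusted p = 4.76e-09). STC2, the paralogue of STC1, moved the other way, by -0.28 (adjusted p = 0.0252, not passing without vehicle replicate 1 or 3) at 24 h and -0.54 (SE 0.09) at 72 h, when all 15 treated libraries were below vehicle. ADM, the vasodilator peptide adrenomedullin, was low, at 1.77 to 24.5 in all libraries, with changes of 0.20 and -0.27 that did not pass. ANGPTL4, an inhibitor of lipoprotein lipase, did not exceed 6.33 in any library.

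The carbonic anhydrases CA9 and CA12 buffer pH at the cell surface, and SLC6A8 imports creatine. CA9, often used as a marker of hypoxia, was listed at 0 in all 3 vehicle libraries at 72 h and did not exceed 0.66 in vehicle at 24 h. It reached 17.7 at 24 h and 20.6 at 72 h in treated libraries, where 12 and 13 of 15 were above every vehicle library. No fold is given for it, and 571 of its bases overlap ARHGEF39 on the other strand, a gene with mean changes of -2.44 and -1.04. CA12 stood at 391 to 455 in vehicle and 312 to 447 in treated libraries at 24 h, which overlap. At 72 h the 15 treated libraries held 597 to 825, all above vehicle (454 to 502), a rise of 0.52 (SE 0.08). SLC6A8 rose by 0.37 and 0.31.

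Members linked to growth and stress were mixed, with 5 of 7 higher past the adjusted p at 24 h and 4 at 72 h. The shares of all genes were 20.7% and 21.7%. NDRG1 (ENSG00000104419), a protein linked to differentiation and growth arrest that androgen as well as hypoxia raises, held 1368, 1651 and 1271 in vehicle at 24 h. It held 3414, 6241 and 4595 with AU2-94 at 1 µM and 8028, 7141 and 5797 at 2 µM. With atirmociclib it held 6730, 5042 and 6794 at 1 µM and 6403, 4975 and 2412 at 2 µM, and with ribociclib 5366, 3742 and 5255. None of these libraries overlapped vehicle, and the mean change was 1.88 (SE 0.21, adjusted p = 9.4e-07). At 72 h the vehicle libraries held 798, 1038 and 1010 and the treated ones 3733 to 5141. The change was 2.22 (SE 0.08, adjusted p = 1e-13), and its 5 single values, from 2.13 to 2.38, lay close together. Over 753 bases NDRG1 shares exonic sequence with ENSG00000289316 on the same strand, whose changes were 2.05 and 2.38.

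PPFIA4 (ENSG00000143847, chr1:203026491-203078740, plus strand), a liprin scaffold protein, held 25.7, 153 and 66.0 in vehicle at 24 h. Its libraries held 76.5, 339 and 232 with AU2-94 at 1 µM and 520, 449 and 168 at 2 µM. With atirmociclib they held 387, 202 and 295 at 1 µM and 385, 209 and 112 at 2 µM, and with ribociclib 186, 117 and 151. Treated and vehicle libraries overlapped, with 11 of 15 above every vehicle library. The mean change of 1.78 (SE 0.47, adjusted p = 0.00495) fell to 1.14 and no longer passed when vehicle replicate 1 was left out. At 72 h PPFIA4 gave a clear separation, 79.0, 23.4 and 85.8 in vehicle against 211 to 647, with a change of 2.89 (SE 0.31, adjusted p = 5.45e-07). TMEM45A, a transmembrane protein, rose by 0.94 (SE 0.30, adjusted p = 0.0175) at 24 h, and by 0.72 without vehicle replicate 1, which did not pass. At 72 h its value was 0.24 (adjusted p = 0.6). DDIT4, an inhibitor of mTORC1, rose by 0.36 and 0.52. RAB20, a small GTPase of endosomes, rose by 0.52 at 24 h and had 0.21 (adjusted p = 0.108) at 72 h. WSB1, part of a ubiquitin ligase, had 0.09 (adjusted p = 0.573) at 24 h and rose by 0.29 at 72 h. ERO1A, an oxidase that forms disulphides in the endoplasmic reticulum, had 0.30 (adjusted p = 0.161) and 0.02 (adjusted p = 0.842).

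Transcription regulators and non-coding members included both the rises and the falls. Of 5, 3 were called higher and 1 called lower at 24 h, against 1.62% and 3.67% of all genes. At 72 h 3 were past the adjusted p and higher with 1 called, against 21.7% and 3.65%. MIR210HG (ENSG00000247095, chr11:565657-568457, minus strand) is the long non-coding RNA that hosts the microRNA miR-210. It held 49.4, 55.0 and 21.2 in vehicle at 24 h. The AU2-94 libraries held 65.7, 107 and 101.2 at 1 µM and 147, 164 and 88.4 at 2 µM. The atirmociclib libraries held 116, 67.0 and 87.8 at 1 µM and 125, 96.5 and 54.1 at 2 µM, and the ribociclib libraries 84.5, 55.9 and 72.2. All but 1 of the treated libraries exceeded vehicle, the exception being atirmociclib at 2 µM replicate 3. The mean change was 1.21 (SE 0.28, adjusted p = 0.00189). Without vehicle replicate 3, the lowest, the mean change of MIR210HG was 0.79, past the adjusted p but no longer called, and it did not pass in AU2-94 at 1 µM (0.77), atirmociclib at 1 µM (0.75) or atirmociclib at 2 µM (0.72). At 72 h vehicle held 32.5, 41.2 and 19.0 and the treated libraries 70.0 to 155, all higher, with a change of 1.80 (SE 0.20, adjusted p = 5.85e-07).

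BHLHE40 (ENSG00000134107, chr3:4979437-4985323, plus strand) and BHLHE41 are paired transcriptional repressors that also act in the circadian clock. BHLHE40 held 416, 515 and 427 in vehicle at 24 h. With AU2-94 it held 613, 1192 and 893 at 1 µM and 1436, 1302 and 855 at 2 µM. Atirmociclib gave 1586, 1168 and 1299 at 1 µM and 1563, 1035 and 540 at 2 µM, and the ribociclib libraries 974, 680 and 854. None overlapped vehicle, and the mean change was 1.17 (SE 0.23, adjusted p = 0.000462). At 72 h vehicle held 527, 536 and 630 and the treated libraries 628 to 975, a smaller rise of 0.50 (SE 0.08, adjusted p = 4.05e-05). The difference between the times, -0.67, had an adjusted p of 0.0512.

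BHLHE41 (ENSG00000123095, chr12:26120030-26125037, minus strand) fell at 24 h, from very low levels. It held 38.0, 5.79 and 19.8 in vehicle. AU2-94 gave 1.18, 2.47 and 2.28 at 1 µM and 9.75, 3.28 and 2.28 at 2 µM. Atirmociclib gave 3.99, 1.27 and 0 at 1 µM and 4.16, 1.27 and 1.91 at 2 µM, and the ribociclib libraries 17.6, 1.15 and 3.89. Of the treated libraries 13 lay below every vehicle library, and the mean change was -2.27 (SE 0.64, adjusted p = 0.00793). Exactly 3 libraries at 24 h were at 10 or more, vehicle replicates 1 and 3 and ribociclib replicate 1, and without any of them BHLHE41 no longer met the filter on low values and was not tested. At 72 h, with vehicle at 11.9, 32.6 and 70.3 and treated libraries at 6.90 to 52.2, its change of -0.83 (adjusted p = 0.221) did not pass.

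ANKRD37 (ENSG00000186352, chr4:185396021-185400628, plus strand) encodes an ankyrin-repeat protein. It held 65.4, 82.0 and 69.5 in vehicle at 24 h. The AU2-94 libraries held 197, 184 and 172 at 1 µM and 256, 233 and 140 at 2 µM. The atirmociclib libraries held 220, 127 and 193 at 1 µM and 192, 101 and 69.9 at 2 µM, and the ribociclib libraries 154, 169 and 139. Only the third atirmociclib 2 µM library was inside the vehicle range, and the mean change was 1.16 (SE 0.22, adjusted p = 0.000392). At 72 h vehicle held 52.4, 58.3 and 62.2 and treated libraries 61.8 to 159, a change of 0.78 (SE 0.16, adjusted p = 0.000526). ANKRD37 overlaps UFSP2 over 909 bases on the other strand. UFSP2 had mean changes of 0.32 (adjusted p = 0.0651) and 0.17 (adjusted p = 0.328). With atirmociclib at 2 µM and 24 h UFSP2 rose by 0.65 (adjusted p = 0.00739), where ANKRD37 had 0.62 (adjusted p = 0.107). Reads of the pair may not be separable since strand in counting is not given in the sources used here.

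RORA (ENSG00000069667, chr15:60488284-61229302, minus strand), a nuclear receptor of the clock, followed no common direction. At 24 h vehicle held 48.8, 133 and 50.2, treated libraries ran from 28.3 to 98.1, and the mean change was -0.24 (adjusted p = 0.603). At 72 h vehicle held 72.0, 72.6 and 45.8. The AU2-94 libraries held 98.4, 102 and 123 at 1 µM and 53.1, 63.3 and 95.1 at 2 µM. The atirmociclib libraries held 55.4, 57.9 and 69.0 at 1 µM and 27.96, 29.2 and 33.2 at 2 µM, and the ribociclib libraries 88.9, 73.9 and 66.0. The 3 libraries of atirmociclib at 2 µM were the 3 lowest at that time, with a change against vehicle of -1.02 (SE 0.22, adjusted p = 0.00115), which was under 1 in size without vehicle replicate 2 or atirmociclib replicate 1. AU2-94 at 1 µM had a rise of 0.78 (adjusted p = 0.0114).

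Of 5 chromatin members, 3 rose at 24 h and 4 at 72 h past the adjusted p, against 20.7% and 21.7% of all genes. KDM3A, KDM4B and KDM4C are oxygen-using demethylases of histone H3 lysine 9. KDM3A (ENSG00000115548, chr2:86440647-86492716, plus strand) held 552, 825 and 631 in vehicle at 24 h. It held 1167, 1511 and 1278 with AU2-94 at 1 µM and 1767, 1295 and 1123 at 2 µM. With atirmociclib it held 1293, 1477 and 1359 at 1 µM and 1362, 1244 and 717 at 2 µM, and with ribociclib 1065, 960.5 and 1062. All but the third atirmociclib 2 µM library were above vehicle, and the mean change was 0.89 (SE 0.15, adjusted p = 0.000149). At 72 h KDM3A was called, with vehicle at 546, 510 and 428, treated libraries at 794 to 1473 and a change of 1.05 (SE 0.12, adjusted p = 1.36e-06). Without vehicle replicate 3 the change was 0.95, which passed the adjusted p but was too small for a call, and 6 members in place of 7 were called at that time. KDM4B rose by 0.52 and 0.70, with all treated libraries above vehicle at both times. KDM4C rose by 0.38 and by 0.22, the second value not passing when any 1 of the vehicle libraries was left out. YEATS2, a reader of acylated histones, had -0.04 (adjusted p = 0.758) and then rose by 0.28. JMJD6, a hydroxylase of lysine residues, had -0.04 (adjusted p = 0.624) and -0.14 (adjusted p = 0.18).

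Of 4 genes of glycogen and lipid handling, 3 rose at 24 h and 2 at 72 h past the adjusted p, against 20.7% and 21.7% of all genes. GYS1, glycogen synthase of muscle type, rose by 0.41 and 0.28. GBE1, which adds branches to glycogen, rose by 0.42 at 24 h and had 0.13 (adjusted p = 0.198) at 72 h. INSIG2, which holds the sterol sensor of the endoplasmic reticulum in place, rose by 0.83 (SE 0.15) and 0.52 (SE 0.13). HILPDA, a lipid droplet protein and a direct HIF target in many cells, had 0.07 (adjusted p = 0.713) and -0.04 (adjusted p = 0.697).

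Most genes listed as glycolytic HIF targets or under collagen hydroxylation also rose, and the part of HIF in this was not tested. Of 22 glycolytic HIF targets, 17 were past the adjusted p and higher at 24 h, against 20.7% of all genes. At 72 h 18 were, against 21.7%, and none was lower at either time. SLC16A3, the lactate exporter, rose by 3.20 at 24 h, PFKFB4 by 1.47 and ENO2 by 1.45. At 72 h SLC16A3 rose by 2.95, PFKFB4 by 1.66 and ALDOC by 1.51. Of 6 collagen hydroxylation genes, 4 rose past the adjusted p at each time, against 20.7% and 21.7% of all genes. At each time 3 were called higher, against 1.62% and 3.65%. PLOD2, a collagen lysyl hydroxylase, stood at 5.08 and 5.69. LOX stood at 2.02 and 1.87, and P4HA1 at 1.08 and 1.05. Of 9 HIF subunits and oxygen sensors tested, limma called 0 in the mean of the treatments at either time. Of all genes 1.62% were called higher and 3.67% lower at 24 h, and 3.65% and 1.7% at 72 h. A count of 0 of 9 does not set this list apart from those shares. At an unadjusted p under 0.05, 1 of the 9 was higher and 1 lower at 24 h, beside 3919 and 3731 of all 16137 genes. At 72 h 2 were higher. At 24 h EGLN3 rose by 0.73 and EGLN2 fell by 0.20 on the log2 scale, and at 72 h HIF1A rose by 0.17 and EGLN2 by 0.25. EGLN3, a hydroxylase that is itself a HIF target, was called higher in 1 single treatment, AU2-94 at 2 µM and 24 h (1.03, adjusted p = 0.0241). HIF protein and oxygen were not measured in these files.

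The 2 exposure times were compared by the difference between the mean treatment effects. Of 33 members tested, 5 had a difference past the adjusted p against 29.4% of all 16850 genes, a lower share than the background. Limma called 0 of them against 4.5%, and at an unadjusted p under 0.05 there were 4 higher and 3 lower. CA12 and FAM162A differed most, by 0.69 (SE 0.12, adjusted p = 7.5e-05) and -0.49 (adjusted p = 2e-06). In FAM162A the 15 treated libraries held 3641 to 4675 at 24 h over a vehicle range of 2936 to 3230, and 3086 to 4122 at 72 h around a vehicle range of 3514 to 3823. KDM4B (0.18, adjusted p = 0.03), YEATS2 (0.32, adjusted p = 0.0333) and GBE1 (-0.29, adjusted p = 0.0493) differed less. With the replicate block GBE1 no longer passed. Between the vehicle groups themselves, FAM162A alone passed the adjusted p, 0.22 higher at 72 h (adjusted p = 0.0257), against 7.5% of all genes. Limma called 0 members between the vehicle groups, against 1.03%, with 1 higher and 4 lower at an unadjusted p under 0.05. NDUFA4L2 was 1.22 log2 units lower in vehicle at 72 h than at 24 h, which did not pass (adjusted p = 0.233).

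**Figure D3:**
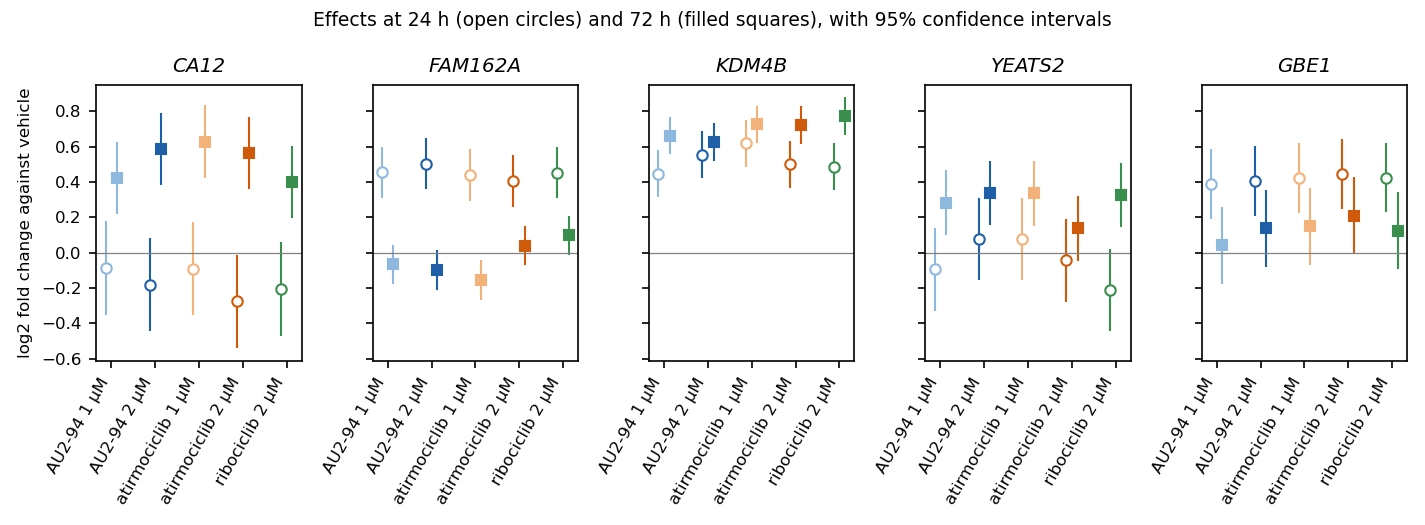
For CA12, FAM162A, KDM4B, YEATS2 and GBE1, each panel gives the log2 fold change against vehicle (with its 95% confidence interval) for the 5 treatments, as open circles at 24 h and filled squares at 72 h. CA12 lies near or below 0 at 24 h and above 0 in all 5 treatments at 72 h, and FAM162A does the reverse, with 72 h values near 0.

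Compounds were compared directly in 8 pairs at matched dose and time, 4 at each time. At 24 h limma called 0 of 32 members in any pair. For atirmociclib minus AU2-94 at 1 µM the background was 0.954% called and 4.64% past the adjusted p, and 1 member, SLC6A8 (0.40), passed the latter. For atirmociclib minus AU2-94 at 2 µM it was 0.954% and 9.44%. For ribociclib minus AU2-94 at 2 µM it was 0.0124% and 0.0372%, and for atirmociclib minus ribociclib 0.421% and 4.64%. In the last 3 pairs no member passed the adjusted p. At an unadjusted p under 0.05 the 4 pairs had 5 higher and 0 lower, 1 higher and 5 lower, 0 higher and 11 lower, and 3 higher and 0 lower. The numbers over all genes at that p are not given here, so these counts are not read as differences between compounds. For NDUFA4L2 the SE of each of these differences was 0.69, and a p that misses the threshold does not show that the compounds act alike.

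At 72 h, atirmociclib at 2 µM gave lower levels than AU2-94 at 2 µM for 3 called members, against 2.12% of all genes. STC1 was lower by 1.17 log2 units (-1.17, 95% interval -1.96 to -0.38, adjusted p = 0.0349) and NDUFA4L2 by 1.07 (-1.07, interval -1.83 to -0.31, adjusted p = 0.0439). RORA was lower by 1.16 (-1.16, interval -1.63 to -0.69, adjusted p = 0.000993). Including these, 6 members passed the adjusted p against 19.8%, with STC2 (-0.38) and BHLHE40 (-0.30) lower and AK4 (0.18) higher. The STC1 and NDUFA4L2 calls were lost with no low-value filter, quantile normalisation or no variance trend, and without AU2-94 2 µM replicate 3 (-0.91 and -0.85) no member was called. STC1 also did not pass without AU2-94 replicate 1 or atirmociclib replicates 2 or 3, nor NDUFA4L2 without AU2-94 replicate 2 or any of the 3 atirmociclib replicates. Atirmociclib at 1 µM minus AU2-94 at 1 µM had 0 called by limma against 0.575%, with 1 higher and 9 lower at an unadjusted p under 0.05. Its 4 members past the adjusted p, against 8.24%, were STC2 (-0.39), KDM3A (-0.60), BHLHE40 (-0.40) and RORA (-0.82). STC1 lay just outside, at -1.23 with adjusted p = 0.0504, and 1 member was called with the replicate block.

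Ribociclib and AU2-94, both at 2 µM, had 0 members called at 72 h by limma against 0.208%, with 5 higher and 7 lower at an unadjusted p under 0.05. FAM162A (0.20) was the 1 past the adjusted p, against 3.34%. For atirmociclib minus ribociclib at 2 µM, RORA was called (-1.31, 95% interval -1.77 to -0.84, adjusted p = 0.000753), 1 of 32 members against 0.845% of all genes. SLC6A8 (0.23) and DDIT4 (0.23) also passed the adjusted p, against 9.18%. For NDRG1 and BNIP3 no pair at either time passed. Their atirmociclib minus AU2-94 differences at 2 µM and 72 h were -0.02 and -0.06, with SEs of 0.10.

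Replicate 3 of atirmociclib at 2 µM and 24 h stood apart from its group in these genes. Over the 32 tested members its median difference from the mean of the other 2 replicates was -0.70 log2 units, while over all genes it was 0.002. This library had the fewest genes above 0 of all 36, 19708 beside 20190 and 19951 in replicates 1 and 2. Its mitochondrial share, 7.70% beside 7.28% and 7.53%, was the highest of the 24 h libraries. The part of either in the result was not tested. Lower by at least 1 log2 unit were 11 of 32 members, against 3.37% of all genes, and 29 lay below 0. Counting all 34, it was the lowest of its 3 libraries for 27 and inside the vehicle range for 11. Neither count was made over all genes, so they do not by themselves set this library apart. Members inside the vehicle range include AK4 and WSB1, which lay at only -0.27 and -0.07 from the mean of replicates 1 and 2. NDUFA4L2 was 10.7-fold lower, at 201 beside 2497 and 1869. STC1 was 5.58-fold lower, at 17.3 beside 145 and 70.2, and TMEM45A 3.52-fold lower, at 23.4 beside 102 and 70.3. VEGFA, PPFIA4, BHLHE40, NDRG1, RORA, BNIP3, MIR210HG and BNIP3L made up the rest of the 11. GYS1, KDM4C and RAB20, at 0.09, 0.14 and 0.17, were not lower in this library. Among the other lists the median difference was -0.50 for glycolytic HIF targets and -1.53 for collagen hydroxylation. It was -0.07 for HIF subunits, -0.02 for ATF4 targets, -0.07 for proliferation genes and -0.03 for luminal markers.

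**Figure D4:**
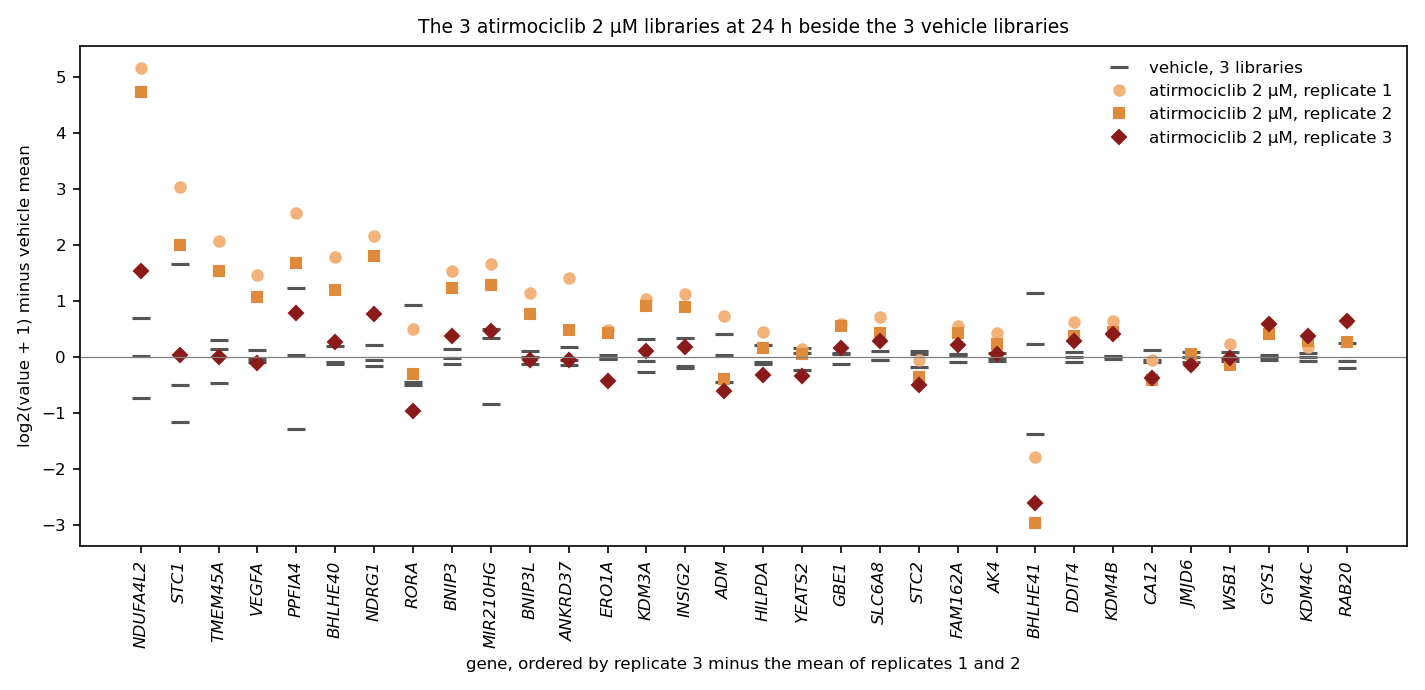
Points give log2(value + 1) minus the vehicle mean at 24 h for the 3 atirmociclib 2 µM libraries and the 3 vehicle libraries, with members ordered by how far replicate 3 lies from replicates 1 and 2. Replicate 3 lies at -3.42 log2 units from the others for NDUFA4L2 and at -2.48 for STC1. It lies inside the vehicle range for 11 of the 34 members, a count that was not made over all genes. That count includes CA9, which like ANGPTL4 was not tested and is not drawn.

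In the same group, replicate 1 had a member median of 0.53, with 9 members higher by at least 1 unit against 2.66% of all genes, but its comparison is with a mean that holds the low replicate 3. Libraries of other 24 h groups varied to a smaller degree. AU2-94 at 1 µM replicate 1 had -0.24, with 4 members lower against 2.89%. AU2-94 at 2 µM replicate 3 had -0.33. Vehicle replicate 2 had 0.13, with 4 members higher against 2.04%. The 72 h medians of all libraries stayed between -0.12 and 0.20, and the all-gene medians of all 36 libraries between -0.01 and 0.01.

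**Figure D5:**
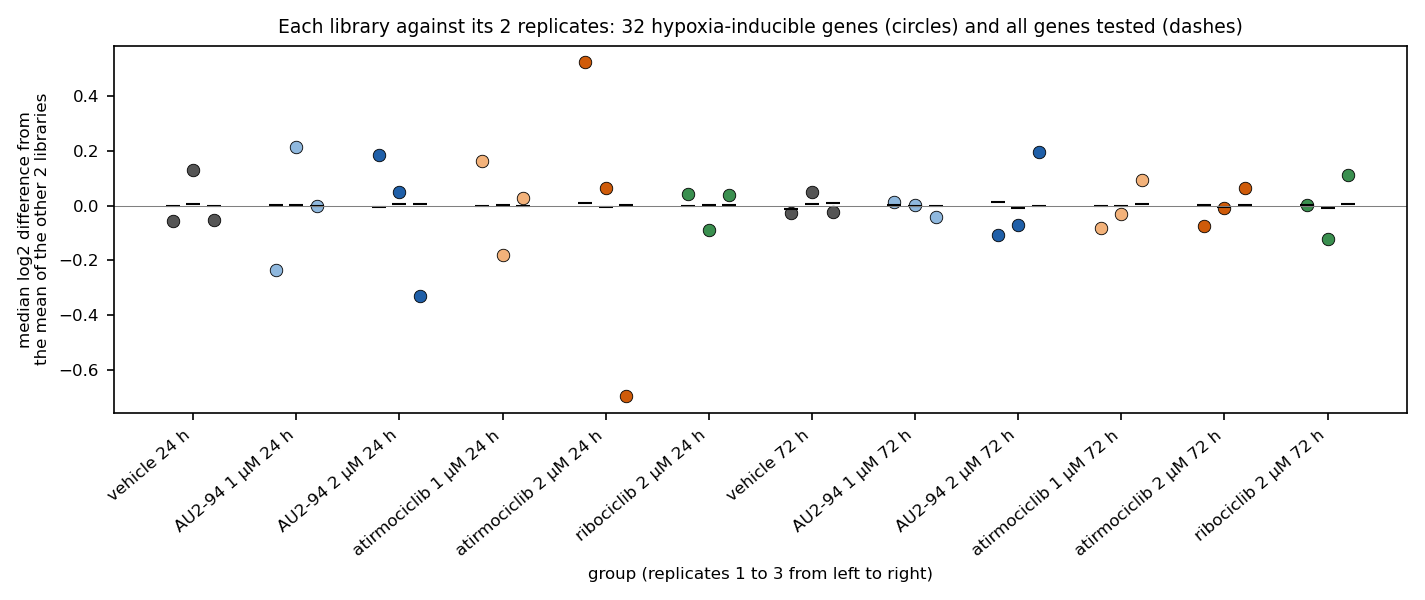
For each of the 36 libraries, circles give the median log2 difference of the 32 members from the mean of the 2 other replicates of its group and dashes the same over all genes. Only 3 libraries, all at 24 h, have a member median over 0.3 in size, and the lowest, -0.70, is atirmociclib 2 µM replicate 3.

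Without that library, the number of members called higher with atirmociclib at 2 µM and 24 h went from 8 to 10, beside 1.37% of all genes, and the number called lower from 1 to 0. VEGFA went from 0.82 (adjusted p = 0.0752) to 1.28 (adjusted p = 0.00372) and INSIG2 from 0.74 to 1.02. NDUFA4L2 went from 3.81 (SE 0.69) to 4.95 (SE 0.49), STC1 from 1.69 to 2.52, NDRG1 from 1.58 to 1.99 and BNIP3 from 1.05 to 1.38. In the mean of the treatments at 24 h, VEGFA and TMEM45A joined the called members, 10 in place of 8. The median member difference between atirmociclib and AU2-94 at 2 µM went from -0.24 to -0.05. Against ribociclib, TMEM45A was then called 1.65 higher (adjusted p = 0.00427). The library left out had been singled out as low in these genes, so its removal was bound to raise most of them in this group. The values without it are a description and not separate support. The number called higher with atirmociclib at 2 µM and 24 h also depended on other libraries. It was 2 without its replicate 1 and 3 without its replicate 2, fits in which the low replicate 3 weighs more. It was 4 without vehicle replicate 1, 5 without vehicle replicate 3 and 8 without vehicle replicate 2. For AU2-94 at 1 µM and 24 h, 11 members in place of 7 were called higher without its replicate 1.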

How the data were processed

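Total RNA of LNCaP cells was sequenced as paired reads in 36 libraries, and per the submitters' processing notes and methods the reads were run through nf-core/rnaseq with STAR 2.6.1d on GRCh38. The authors deposited normalised counts made with DESeq2, a depth-scaled signal per gene with fractional values, from which whole reads could not be recovered (0% of values above 0 were whole within 1e-6). The counter, annotation release and strand setting are not given in the sources used here. Read depth per library is therefore unknown, and with 3 replicates per group the spread between replicates sets the precision.

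Genes at 10 or more in at least 3 libraries were kept (16137 at 24 h, 16341 at 72 h and 16850 over both). Values were analysed as log2(value + 1) with limma 3.58.1 in R 4.3.3, by limma-trend with the 6 groups of a time point in 1 fit, or all 12 groups for differences between times. Tests were two-sided, with Benjamini-Hochberg adjustment over all genes of a contrast, and the thresholds were those of the study. A call needed an adjusted p of at most 0.05 and a log2 fold change of at least 1 in size.

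Named members, those given with all libraries, were past both thresholds in the mean of the 5 treatments at a time, or called in at least 3 of the 5, or called between compounds. NDUFA4L2, STC1, NDRG1, PPFIA4, MIR210HG, BNIP3, BHLHE40, ANKRD37, KDM3A, BHLHE41 and RORA met this, and VEGFA was added after its values were seen. From other lists at most the 3 genes with the largest change were named. The members, lists and rules were chosen with earlier results of these data known. Overlapping genes were taken from GENCODE v44 and near-identical transcripts from BLAST 2.17.0.

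The labels give the replicate number as a batch, which by itself does not show that same-numbered libraries were handled together. Same-numbered libraries hardly deviated together, with correlations across 45 pairs of -0.0898 to 0.112 at 24 h and -0.0797 to 0.0502 at 72 h. Alternatives changed the pseudocount (8), the low-value filter (none, or a mean of at least 100), the scaling (quantile, equal totals), the replicate block, the groups fitted and the variance trend, and left out each library.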

Additional observations from a re-analysis of the deposited data

Results flagged for a closer look

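In 5 members the mean effect of the treatments differed between 72 h and 24 h by the test of that difference (limma, adjusted over all genes), 5 of 33 tested against 29.4% of all genes, a lower share than the background. CA12 had a log2 difference of 0.69, from -0.17 at 24 h to 0.52 at 72 h. FAM162A had -0.49, from 0.45 to -0.04. KDM4B had 0.18, YEATS2 0.32 and GBE1 -0.29. CA12 and FAM162A passed under every alternative run, whereas KDM4B did not pass with no low-value filter or without any 1 of 4 vehicle libraries. YEATS2 did not pass with no filter, with no variance trend or without any 1 of 4 vehicle libraries, and GBE1 did not pass under most of the left-out libraries. Time and seeding density cannot be told apart in these differences.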

How the results depend on the processing

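No called value changed sign under any alternative run. Values of single members were followed if past the adjusted p in the mean of the treatments or the difference between times. From the other contrasts only called values were followed. Under other settings 980 still passed the adjusted p and 25 did not. With a library left out, 1434 still passed it and 81 did not. Whether a followed value still passed was judged by the adjusted p alone and not by the size needed for a call. The counts leave out fits in which a member no longer met the filter. Members called higher were 6 to 11 with a library left out for AU2-94 at 1 µM and 24 h (7), and 2 to 10 for atirmociclib at 2 µM and 24 h (8), where the filter on a mean of at least 100 gave 5 and a fit of only the groups compared gave 4. The same filter, which removes low members from testing, gave 5 for AU2-94 at 1 µM (8) and 4 for AU2-94 at 2 µM (7) at 72 h. Members called lower at 24 h, 1 each for AU2-94 at 1 µM, atirmociclib at 1 µM and atirmociclib at 2 µM, became 0 with that filter and with only the groups compared, and 0 to 1 with a library left out. For the mean of the treatments at 24 h the 1 became 0 with the filter and 0 to 1 with a library left out, and the 2 lower past the adjusted p became 1 with the filter, 1 with no trend and 0 to 2 with a library left out. At 72 h the 1 lower for atirmociclib at 2 µM became 0 with pseudocount 8 and with the filter, and 0 to 1 with a library left out, as it was for atirmociclib at 1 µM (0). Between atirmociclib and AU2-94 at 1 µM, no low-value filter gave 1 at 24 h (0), and pseudocount 8, equal totals, the replicate block and only the groups compared each gave 1 at 72 h (0), with 0 to 2 over left-out libraries. Between them at 2 µM, left-out libraries gave 0 to 1 at 24 h (0). At 72 h (3) they gave 0 to 3, and no low-value filter, the mean filter, quantile normalisation and no trend each gave 1. Atirmociclib minus ribociclib gave 0 to 1 at 24 h (0), and 0 at 72 h (1) with the mean filter, which removes RORA. Ribociclib minus AU2-94 at 72 h gave 0 to 1 (0), and the difference between times 0 to 1 (0). The median of atirmociclib 2 µM replicate 3 at 24 h was -0.52 to -0.68 under the other settings (-0.70). The replicate block changed no other call than those given for it here and for GBE1. Except where a member no longer met a filter, as BHLHE41 did not, the cause was not tested. The small number of replicates limits what can be seen at 24 h.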

Other observations

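Gene groups outside the lists of HIF targets also changed in the same libraries. Of 12 targets of ATF4, the factor of the amino acid response, 8 were past the adjusted p and lower at 24 h, against 19.2% of all genes. At 72 h 9 were, against 21.7%, and limma called 5 lower, against 1.7%. CHAC1, which degrades glutathione, fell by 0.92 on the log2 scale at 24 h and by 1.90 at 72 h. All 8 proliferation genes were past the adjusted p and lower at both times, against 19.2% and 21.7% of all genes. MKI67 changed by -2.98 and -1.22 log2 units. All 10 luminal markers were past the adjusted p and higher at 24 h, against 20.7% of all genes. At 72 h 9 were higher, against 21.7%, and 1 was lower, against 21.7%. TMPRSS2 stood at 1.14 and 1.84. Among markers of other cell types, CD68 had -0.82 at 24 h and VWF 1.11 at 72 h. Of the 2 fibroblast markers tested, COL3A1 had 0.96 (adjusted p = 0.0241) and COL1A1 -0.48 (adjusted p = 0.00363) at 24 h, and neither passed at 72 h.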
